A study of Homo sapiens with 6 samples.

Results

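The genes that encode translation initiation and elongation factors were examined in cells in which N6AMT1 had been knocked down. The list was made by gene symbol and holds 49 genes, the initiation factors other than the EIF4G family, the poly(A) binding proteins with their partners, and the elongation factors. All 49 were found among the 62438 genes of the deposited count table, and 49 of 49 were abundant enough to be tested, among 17320 genes tested in all. RNA-seq was performed on cells under the label MDA-MB-453, the name of a breast cancer cell line from human, to look for genes whose mRNA changes when N6AMT1, a methyltransferase studied there for adenine methylation of DNA, is reduced. In the si-N6AMT1 group, 3 libraries came from cells that received an siRNA against N6AMT1, and in the si-CN group 3 libraries came from cells that received a scrambled siRNA. Both groups received 10 nM siRNA with the same transfection reagent and were harvested after 48 h. The cells are 1 line, so no result extends to other lines, and the labels do not say whether the 3 libraries of a group came from separate cultures. The p-values below therefore measure only the spread between these libraries, which may be technical.

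Translation starts when eIF2, loaded with GTP and the initiator tRNA, joins the small ribosomal subunit with eIF1, eIF1A, eIF3 and eIF5, and this complex is brought to the mRNA cap through eIF4E, the eIF4A helicases and their partners. It then scans to the start codon, where eIF5 promotes GTP hydrolysis by eIF2 and eIF5B joins the large subunit, and eIF2B later recharges eIF2 with GTP. The eEF1 factors deliver aminoacyl-tRNAs to the ribosome and eEF2 moves it along the mRNA. Many mRNAs of the elongation factors begin with a 5′ terminal oligopyrimidine (TOP) tract, through which mTORC1 signalling is known to control their translation.

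Libraries held 19739247 to 21289740 counts. N6AMT1 itself (ENSG00000156239, chr21:30244513-30257693 in GRCh37, minus strand) had 61, 72 and 60 counts in the si-N6AMT1 libraries and 136, 135 and 141 in the si-CN libraries (log2 fold change -1.10, SE 0.119, edgeR FDR = 3.65e-07, where SE is the standard error of the log2 fold change). Markers of breast and other cell types were examined as well. The basal markers KRT5, KRT14, KRT17 and TP63 were all tested and were abundant, with a summed level of 3899 to 3981 CPM (TMM-scaled counts relative to the library total, on edgeR's usual scale) in si-CN and 3969 to 4053 CPM in si-N6AMT1 libraries. Of these basal markers 3 were higher after si-N6AMT1, and KRT17 was not called. The luminal markers summed to 1935 to 1987 CPM in si-CN and 2015 to 2034 CPM in si-N6AMT1, and of 10 tested 1 was lower and 3 were higher. That sum came mostly from KRT8, KRT18, KRT7 and EPCAM, at 599.9, 461, 434 and 316 CPM in si-CN, while the luminal genes KRT19, GATA3, CDH1 and FOXA1 were at 0.499, 2.67, 4.98 and 8.42 CPM and SPDEF was too low to be tested. The line MDA-MB-453 is known as luminal, which these basal and luminal levels go against, so the cells are called by their label only, and their identity could not be settled from these libraries. Of 8 markers of fibroblasts, endothelium or blood in the table, 3 were tested and 0 were called by edgeR, DESeq2 or limma-voom (0 also at an unadjusted p under 0.05), at summed levels of 49.9 to 52.0 CPM in si-CN and 49.3 to 52.3 CPM in si-N6AMT1, a sum made up mostly by COL1A1 at 45.8 CPM in si-CN, with the blood markers PTPRC, CD3E and CD14 at 4 counts or fewer in every library. The mitochondrial genome took 3.72% ± 0.119 of counts in si-CN and 3.01% ± 0.1 in si-N6AMT1 (SD, n = 3 each). The part that these markers and the mitochondrial share played in the results below was not tested, except that the members called were as many, 15 lower and 5 higher, when mitochondrial genes were left out. In RNA from bulk cells, fewer cells of one type and less RNA per cell cannot be told apart.

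After knocking down N6AMT1, 15 of the 49 translation factor genes were downregulated, 5 were upregulated and 29 were not called (edgeR's quasi-likelihood test, Benjamini-Hochberg FDR under 0.05 over all genes tested). The largest falls were in EIF5A2, EIF5 and EIF1B, by 20.5% to 27.2%, and the largest rise was in EIF4A2, by 11.4%. Of the other called genes, PAIP2 changed most, by 10.4%. A change of at least 1.5-fold with an FDR under 0.05 was found in 0 of the 49, and in 0.935% of all genes tested. Called members made up 40.8% of the list, 30.6% lower and 10.2% higher, where 21.3% of all genes tested were called, 11.5% lower and 9.78% higher. Abundant genes were called more often than others. Among the 4498 genes with a mean between 52.5 and 770.0 CPM, the range that spans the central members, 42.3% were called, 24.8% lower and 17.5% higher, which is close to the share among the members. The si-N6AMT1 libraries lay wholly below the si-CN libraries for 19 members and wholly above for 9, and this was so for 18.0% and 16.8% of all genes tested. The median log2 fold change of the members was -0.02, with 28 values negative and 21 positive, and that of all genes tested was 0.0039. Together the 49 genes took 1.68% ± 0.012 of all counts in si-N6AMT1 and 1.71% ± 0.00794 in si-CN libraries (SD, n = 3 each; two-sided exact permutation test, p = 0.1, the smallest that 3 libraries against 3 allow). Without EEF1A1, EEF2 and EEF1G the shares were 1.10% and 1.11% (p = 0.5 by the same exact test). Leaving out si-N6AMT1 replicate 2 or 3, or si-CN replicate 2 or 3, reduced the upregulated members from 5 to 3 each time, while the downregulated members ranged from 11 to 14 with any library left out.

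**Figure D1:**
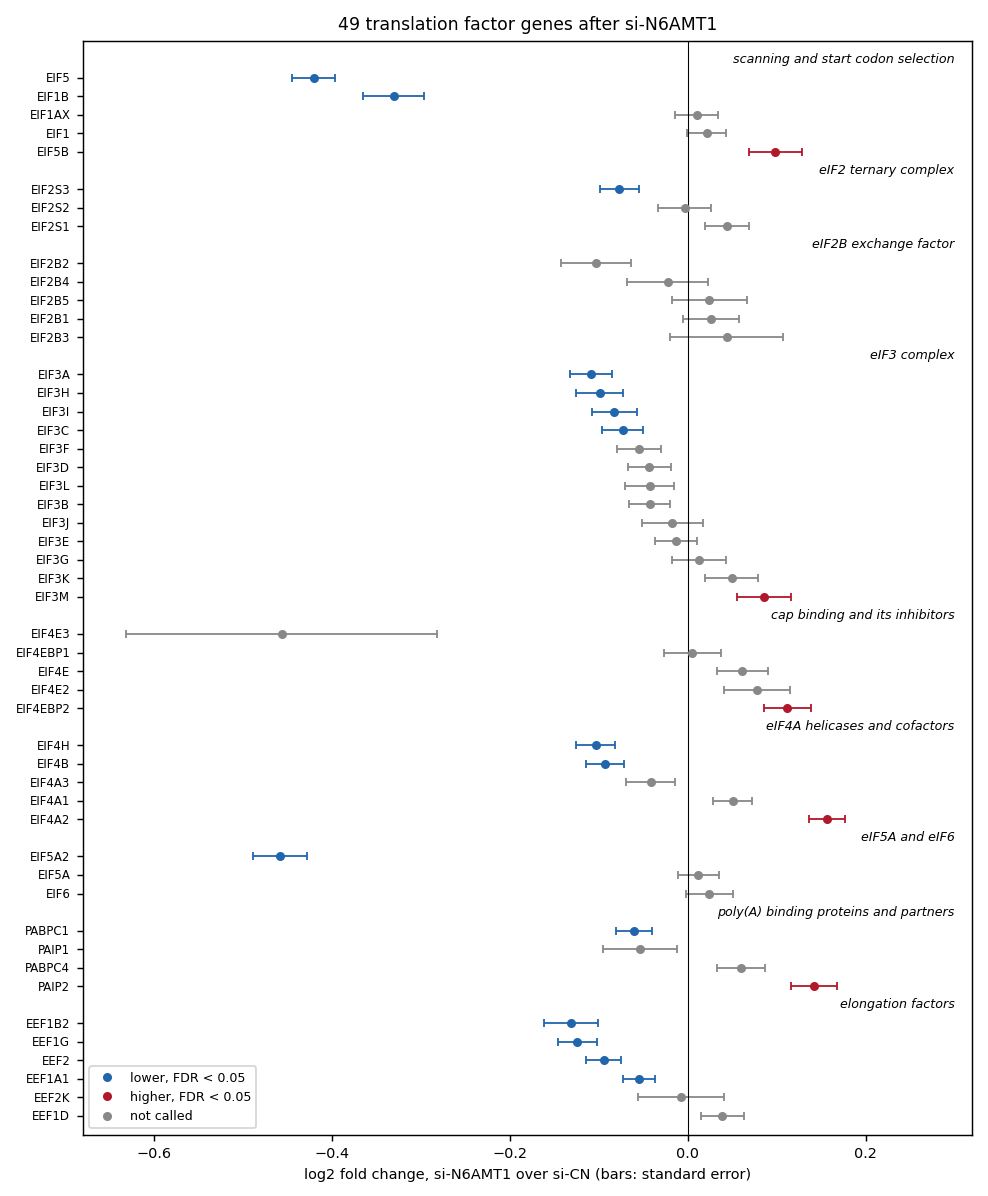
The log2 fold change of each of the 49 genes (x axis, si-N6AMT1 over si-CN, bars are the standard error from edgeR) is drawn by role in translation, with called genes in color. The downregulated EIF5A2, EIF5 and EIF1B lie between -0.46 and -0.33, apart from the other called genes, and EIF4E3, near EIF5A2, has a wide error bar and was not called.

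The 3′ untranslated regions (UTRs) of the 4 genes with the lowest log2 fold changes hold related sequences. The sequences TTCACAT and TCACATA, and the 8 bases that join them (TTCACATA), had already been seen to mark downregulated genes in an earlier look at these libraries, so what follows describes the translation factors and gives no independent support. The reference transcript of each gene (GENCODE v44 on GRCh37) was searched on the mRNA strand, and an 8-base match also contains both 7-base sequences. Among the 49 genes, the 8-base sequence was present in EIF5A2, EIF4E3 and EIF5 alone, and these have ranks 1, 2 and 3 from the bottom by log2 fold change. EIF1B, at rank 4, holds 1 match of 7 bases. The rank of EIF4E3 is not firm, since it rests on 35 to 69 counts per library, was not called, and was above EIF1B, at -0.26, without si-N6AMT1 replicate 3. These matches are shown with 10 bases on either side, the match in capitals.
EIF5A2, first match (chr3:170608883-170608910, minus strand): cttgtaaaatTTCACATAaatatatttt
EIF5A2, second match (chr3:170608701-170608728, minus strand): ggactttattTTCACATAagtcaataga
EIF4E3 (chr3:71728368-71728395, minus strand): ctctcatcttTTCACATAcaaataagca
EIF5 (chr14:103809372-103809399, plus strand): ggaatacaaaTTCACATAatctgaactt
EIF1B (chr3:40353620-40353646, plus strand): caaacttccaTTCACATctgcatgatt

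A match of 7 bases alone did not go with one direction among the members. Of the 8 genes that hold 7 bases without the 8-base sequence, EIF1B, EIF3H and EIF4B were downregulated, EIF5B, EIF3M and EIF4EBP2 were upregulated, and EIF1AX and EIF3F were not called. Their median log2 fold change was -0.02. Some of these calls were not firm. EIF3M lost its call in 8 of 16 alternative ways of processing, EIF5B in 6 and the downregulated EIF3H in 3. The upregulated genes are shown for contrast with those above, again with the match in capitals. In EIF5B the match begins 5 bases after the stop codon, so fewer bases of the UTR precede it.
EIF5B (chr2:100015878-100015898, plus strand): ttttTTCACATggagcaggaa
EIF3M (chr11:32624217-32624243, plus strand): atacaatttcTTCACATtagaaaaact
EIF4EBP2 (chr10:72185598-72185624, plus strand): aagaaagcagTTCACATttaggtgaaa
Across 13160 tested protein-coding genes with a 3′ UTR of at least 50 bases, 4.69% held the 8-base sequence, and 41.2% of those were downregulated and 4.05% upregulated. A 7-base match alone was found in 17.8%, of which 25% were downregulated and 6.54% upregulated, while of the 77.5% with no match 10.4% were downregulated and 13% upregulated. Most downregulated members hold no match, as 9 of the 35 members with such a UTR and no match were lower (25.7%) and 2 were higher. Long UTRs hold matches more often. In UTRs of at least 3000 bases 12.6% held the 8-base sequence. Of those, 40.1% were downregulated and 4.61% upregulated, against 15.1% and 8.75% with no match at that length. In shorter UTRs the shares were 42.7% and 3.23% with the 8-base sequence, against 9.66% and 13.6% with no match. All 3 members with the 8-base sequence are among the 10 members with a UTR of at least 3000 bases. Of the other members in that class, 4 held a 7-base match, of which 2 were upregulated and 0 downregulated, and the 3 with no match (EEF2K, EIF2B2 and EIF2S1) were not called. A match of letters is a description and does not show that anything binds there, and the sequence of the siRNA was not given in the sources used here.

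**Figure D2:**
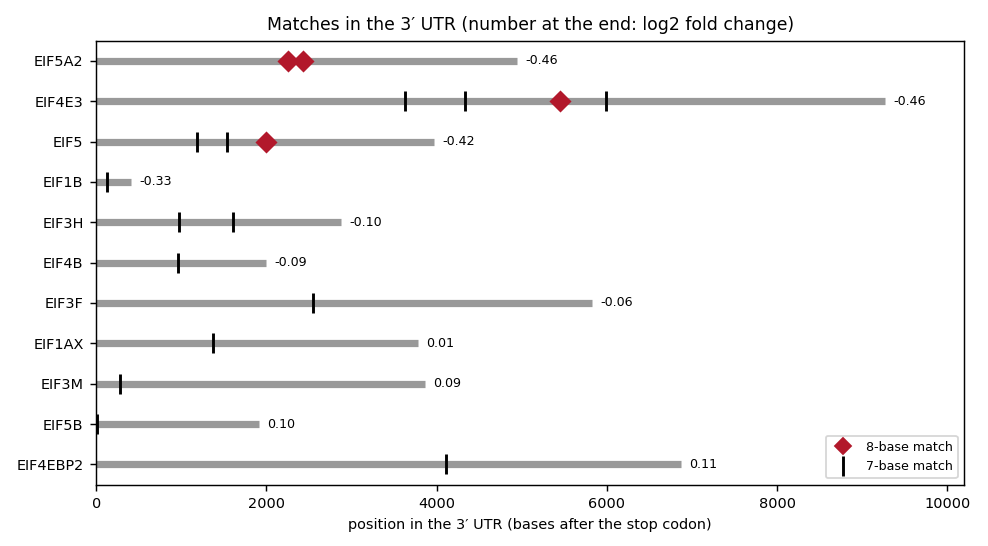
The 3′ UTR of each of the 11 genes with a match is drawn as a bar (x axis, bases after the stop codon), ordered by log2 fold change, which stands at its end. Diamonds mark the 8-base sequence, in EIF5A2, EIF4E3 and EIF5, and ticks mark 7-base matches, which are found in genes with both negative and positive values.

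Among the 5 factors that select the start codon, 2 were downregulated and 1 upregulated (median log2 fold change 0.01). By comparison 11.5% of all genes tested were downregulated and 9.78% upregulated, and between 52.5 and 770.0 CPM 24.8% and 17.5%. EIF5 (ENSG00000100664, chr14:103799881-103811362 in GRCh37, plus strand), which promotes GTP hydrolysis by eIF2 at the start codon, had 241.2, 236.6 and 229.6 CPM in the si-N6AMT1 libraries and 313.4, 310.7 and 322.6 CPM in the si-CN libraries. Each si-N6AMT1 library was far below each si-CN library (log2 fold change -0.42, SE 0.0244, edgeR FDR = 1.77e-11), and the fitted level fell by 25.3%. EIF1B (ENSG00000114784, chr3:40351198-40353915, plus strand), a close relative of EIF1, had 59.5, 60.1 and 61.1 CPM in si-N6AMT1 and 78.2, 73.5 and 75.6 CPM in si-CN, again without overlap (log2 fold change -0.33, SE 0.0342, edgeR FDR = 1.85e-07). EIF1, the factor that guards against initiation at wrong codons, was not called (650.2, 682.8 and 672.7 CPM against 664.1, 660.0 and 652.6 CPM, edgeR FDR = 0.558). EIF1B counts were 8.81% to 9.15% of EIF1 counts in si-N6AMT1 and 11.1% to 11.8% in si-CN libraries. The log2 ratio differed by -0.35 (two-sided exact permutation test, p = 0.1, the smallest that 3 libraries against 3 allow, and 0.1 after adjustment over 4 pairs of related genes). EIF1AX, which works with EIF1 in scanning, had a log2 fold change of 0.01 (edgeR FDR = 0.824). EIF5B, the GTPase that joins the ribosomal subunits, had 173.2, 175.9 and 176.2 CPM in si-N6AMT1 and 172.7, 157.8 and 160.3 CPM in si-CN. The groups did not overlap, though si-CN replicate 1 was within 1 CPM of the lowest si-N6AMT1 library (log2 fold change 0.10, SE 0.0294, edgeR FDR = 0.0183). Its call was lost without si-N6AMT1 replicate 2 or 3 (FDR = 0.057 and 0.0654) or si-CN replicate 2 or 3 (FDR = 0.126 and 0.0963), and with DESeq2 (FDR = 0.077).

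For eIF2, which carries the initiator tRNA, 1 of 3 subunits was called, where 21.3% of all genes tested were called. Between 52.5 and 770.0 CPM the share called was 42.3%. EIF2S3, the GTP-binding gamma subunit, had 343.9, 350.9 and 350.2 CPM in si-N6AMT1 and 374.0, 366.1 and 362.6 CPM in si-CN, without overlap (log2 fold change -0.08, SE 0.0219, edgeR FDR = 0.0133). Without si-CN replicate 1 the FDR was 0.0554. EIF2S1, the alpha subunit that is phosphorylated under stress, had 176.0, 183.4 and 176.2 CPM against 172.8, 173.8 and 172.9 CPM. All si-N6AMT1 libraries were above all si-CN libraries, but the log2 fold change of 0.04 (SE 0.0249) was not called (edgeR FDR = 0.239). EIF2S2, the beta subunit, lay within the spread of its si-CN libraries, which ran from 439.9 to 490.4 CPM (edgeR FDR = 0.953).

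Of the 5 subunits of eIF2B, the exchange factor for eIF2, 0 were called by edgeR, DESeq2 or limma-voom, and 1 had an unadjusted p under 0.05. By edgeR 21.3% of all genes tested were called. EIF2B2 had the lowest value, with 51.5, 54.7 and 56.9 CPM in si-N6AMT1 and 56.9, 58.5 and 59.8 CPM in si-CN. The highest si-N6AMT1 library was just under the lowest si-CN library (log2 fold change -0.10, SE 0.0396, edgeR FDR = 0.069, and 0.0328 without si-N6AMT1 replicate 3). EIF2B3 had the highest value, with 28.9, 28.9 and 26.4 CPM against 30.7, 25.3 and 25.7 CPM, so the groups overlapped (log2 fold change 0.04, SE 0.0638, edgeR FDR = 0.697). EIF2B1, EIF2B4 and EIF2B5 were between -0.02 and 0.03 on the log2 scale.

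The eIF3 complex, the scaffold that binds the small ribosomal subunit, had 4 of 13 subunits downregulated (30.8%) and 1 upregulated (7.69%). The median over the 13 was -0.04 on the log2 scale. DESeq2 called 2 lower and 0 higher. By edgeR 11.5% of all genes tested were downregulated and 9.78% upregulated. Between 52.5 and 770.0 CPM the shares were 24.8% and 17.5%. EIF3A, the largest subunit, had 217.8, 219.6 and 217.2 CPM in si-N6AMT1 and 231.0, 240.3 and 234.5 CPM in si-CN. The si-N6AMT1 libraries were close to each other and all below si-CN (log2 fold change -0.11, SE 0.0234, edgeR FDR = 0.00154). EIF3H had 223.9, 231.9 and 234.8 CPM against 254.9, 246.1 and 239.0 CPM (log2 fold change -0.10, SE 0.0264, edgeR FDR = 0.0086). EIF3I had 165.1, 166.9 and 173.9 CPM against 178.1, 177.0 and 180.6 CPM (log2 fold change -0.08, SE 0.0257, edgeR FDR = 0.0242). EIF3C, a core subunit next to EIF3A, had 264.4, 263.1 and 264.5 CPM against 281.8, 271.1 and 280.1 CPM (log2 fold change -0.07, SE 0.0229, edgeR FDR = 0.0247). For all 4 of these subunits the groups did not overlap. EIF3M had 207.5, 223.3 and 210.6 CPM in si-N6AMT1 and 207.8, 191.9 and 204.8 CPM in si-CN, and here the groups overlapped, with si-N6AMT1 replicate 1 just below si-CN replicate 1 (log2 fold change 0.09, SE 0.0304, edgeR FDR = 0.0483). By edgeR the called subunits thus differed in sign, but only through EIF3M, and DESeq2 and limma-voom called 0 subunits higher.

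Of the called subunits of eIF3, all except EIF3A lost the call when certain single libraries were left out. EIF3H was no longer called without si-N6AMT1 replicate 1 or si-CN replicate 1 (FDR = 0.0525 and 0.0537, edgeR). EIF3I was lost without si-N6AMT1 replicate 1 or 2 or si-CN replicate 3 (FDR = 0.105, 0.0998 and 0.113), and with DESeq2 (FDR = 0.106). EIF3C was lost without si-N6AMT1 replicate 2 or 3 (FDR = 0.0775 and 0.0645) or si-CN replicate 1 or 3 (FDR = 0.0851 and 0.108), and with DESeq2 (FDR = 0.0728). EIF3M was lost without si-N6AMT1 replicate 2 or 3 (FDR = 0.294 and 0.064) or si-CN replicate 2 or 3 (FDR = 0.293 and 0.0617), with limma-voom (FDR = 0.0539) and with DESeq2 (FDR = 0.134). The 8 subunits that were not called had log2 fold changes from -0.055 (EIF3F) to 0.049 (EIF3K). Of those, EIF3D and EIF3L were lower and EIF3K higher in every si-N6AMT1 library than in every si-CN library. EIF3C has a near-identical copy, EIF3CL, whose counts were 0.855% of those of EIF3C, and how the reads of the pair were divided is an estimate of the counting step.

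Of the cap-binding proteins and their inhibitors, 1 of 5 was called, near the 21.3% of all genes tested. EIF4EBP2, which holds eIF4E away from eIF4G, had 124.8, 128.3 and 125.3 CPM in si-N6AMT1 and 115.5, 116.4 and 118.2 CPM in si-CN, without overlap (log2 fold change 0.11, SE 0.0265, edgeR FDR = 0.0035). EIF4EBP1, of the same function, was not called (log2 fold change 0.0049, edgeR FDR = 0.941). EIF4E, the cap-binding protein itself, and EIF4E2, a relative linked to translational repression, had values of 0.06 and 0.08 on the log2 scale, with edgeR FDRs of 0.144 and 0.149, and every si-N6AMT1 library above every si-CN library. EIF4E3, another member of the family, was the least abundant gene of the list, with 52, 57 and 35 counts in si-N6AMT1 and 64, 69 and 64 counts in si-CN libraries. Its log2 fold change of -0.46 was as low as that of EIF5A2, but with a standard error of 0.175 it was not called (edgeR FDR = 0.0696). With 1 library left out it ran from -0.59 (edgeR FDR = 0.038, without si-N6AMT1 replicate 2) to -0.26 (edgeR FDR = 0.331, without si-N6AMT1 replicate 3).

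Of the helicases that unwind the mRNA and their cofactors, 2 of 5 were downregulated and 1 upregulated (median log2 fold change -0.04). The shares over all genes tested were 11.5% and 9.78%, and between 52.5 and 770.0 CPM 24.8% and 17.5%. EIF4A2 (ENSG00000156976, chr3:186500994-186507686 in GRCh37, plus strand), a helicase closely related to EIF4A1, had 671.5, 671.9 and 682.4 CPM in si-N6AMT1 and 608.6, 596.3 and 612.8 CPM in si-CN. The gap between the groups was larger than the range within either (log2 fold change 0.16, SE 0.0205, edgeR FDR = 5.27e-06). EIF4A1, the more abundant helicase, had 932.7, 936.2 and 970.3 CPM against 932.4, 899.4 and 910.3 CPM, barely without overlap (log2 fold change 0.05, SE 0.0216, edgeR FDR = 0.108, and 0.0486 without si-CN replicate 1). EIF4A2 counts were 70.3% to 72.0% of EIF4A1 counts in si-N6AMT1 and 65.3% to 67.3% in si-CN libraries, a difference in the log2 ratio of 0.11 (exact permutation test as above, p = 0.1, adjusted 0.1). EIF4H and EIF4B stimulate the helicase. EIF4H had 422.4, 406.7 and 412.8 CPM in si-N6AMT1 and 440.0, 450.8 and 443.5 CPM in si-CN (log2 fold change -0.10, SE 0.0219, edgeR FDR = 0.00129). EIF4B had 393.1, 395.7 and 405.5 CPM against 421.3, 427.1 and 425.5 CPM (log2 fold change -0.09, SE 0.0214, edgeR FDR = 0.00276). Neither cofactor overlapped between groups, so the cofactors and EIF4A2 were called in opposite directions. EIF4A3, a helicase of the exon junction complex, was not called (log2 fold change -0.04, edgeR FDR = 0.324).

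The poly(A) tail is bound by PABPC1 and PABPC4, and PAIP2 inhibits that binding. PAIP2 (ENSG00000120727, chr5:138677276-138705409 in GRCh37, plus strand) had 259.6, 265.6 and 267.5 CPM in si-N6AMT1 and 243.4, 229.7 and 245.0 CPM in si-CN, without overlap (log2 fold change 0.14, SE 0.0258, edgeR FDR = 0.000272). PABPC1 had 1233, 1274 and 1247 CPM in si-N6AMT1 and 1298, 1301 and 1317 CPM in si-CN (log2 fold change -0.06, SE 0.0198, edgeR FDR = 0.0318). The libraries did not overlap, but the call was lost without si-N6AMT1 replicate 1 or 3 (FDR = 0.105 and 0.096) or si-CN replicate 2 or 3 (FDR = 0.0711 and 0.146). PABPC4 had a log2 fold change of 0.06 (edgeR FDR = 0.13), and its counts were 10.8% to 11.4% of those of PABPC1 in si-N6AMT1 and 10.1% to 10.4% in si-CN libraries (log2 ratio higher by 0.12, exact permutation test as above, p = 0.1, adjusted 0.1). PAIP1, an activator that bridges PABPC1 and eIF4A, was not called (log2 fold change -0.05, edgeR FDR = 0.418).

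EIF5A2 (ENSG00000163577, chr3:170606207-170626433 in GRCh37, minus strand) had the lowest log2 fold change of the 49 genes. It encodes a form of eIF5A, the hypusine-bearing factor that helps ribosomes through difficult sequences. EIF5A2 had 77.2, 80.6 and 80.7 CPM in the si-N6AMT1 libraries and 109.8, 107.1 and 110.9 CPM in the si-CN libraries. The gap between the groups was wider than the range within either (log2 fold change -0.46, SE 0.0302, edgeR FDR = 1.38e-10), and the fitted level fell by 27.2%. EIF5A, the main form, was not called (709.6, 748.6 and 741.5 CPM against 732.5, 738.6 and 711.1 CPM, edgeR FDR = 0.783). EIF5A2 counts were thus 10.8% to 10.9% of EIF5A counts in si-N6AMT1 and 14.5% to 15.6% in si-CN libraries (log2 ratio lower by 0.47 on average, exact permutation test as above, p = 0.1, adjusted 0.1). EIF6, which keeps the large ribosomal subunit apart until it is needed, had 149.4, 153.0 and 152.3 CPM against 153.7, 146.2 and 147.4 CPM and overlapped between groups (log2 fold change 0.02, SE 0.0265, edgeR FDR = 0.584).

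Of the 6 elongation factor genes, 4 were downregulated and 0 were called higher by edgeR, DESeq2 or limma-voom, with 0 also at an unadjusted p under 0.05 (median log2 fold change -0.07). Of all genes tested 11.5% were downregulated and 9.78% upregulated. Among genes at or above the members' median of 174 CPM the shares were 30.2% and 23.4%. EEF1B2 and EEF1G, subunits of the complex that reloads eEF1A with GTP, fell most. EEF1B2 had 114.6, 117.7 and 118.8 CPM in si-N6AMT1 and 132.5, 121.8 and 130.3 CPM in si-CN (log2 fold change -0.13, SE 0.0308, edgeR FDR = 0.00323). EEF1G had 955.4, 998.9 and 979.3 CPM against 1093, 1050 and 1055 CPM (log2 fold change -0.12, SE 0.0220, edgeR FDR = 0.00021). In both genes every si-N6AMT1 library was below every si-CN library. EEF2, the translocase, had 1100, 1067 and 1092 CPM against 1154, 1163 and 1163 CPM (log2 fold change -0.09, SE 0.0197, edgeR FDR = 0.00114). EEF1A1, which brings aminoacyl-tRNA to the ribosome and is the most abundant gene of the list, had 3704, 3713 and 3769 CPM against 3881, 3853 and 3884 CPM (log2 fold change -0.05, SE 0.0181, edgeR FDR = 0.034). The groups did not overlap for EEF2 or EEF1A1. The call of EEF1A1 was lost without si-N6AMT1 replicate 1 or 2 (FDR = 0.0746 and 0.0919) or any one of si-CN replicates 1 to 3 (FDR = 0.0648, 0.0704 and 0.124). EEF1D, another subunit of the exchange complex, had 246.8, 238.1 and 243.1 CPM against 239.8, 231.4 and 237.4 CPM and overlapped (log2 fold change 0.04, SE 0.0238, edgeR FDR = 0.283). EEF2K, the kinase that inactivates eEF2, was not called (log2 fold change -0.0075, edgeR FDR = 0.939). The 6 genes together took 0.621% ± 0.00406 of counts in si-N6AMT1 and 0.646% ± 0.00257 in si-CN libraries (SD, n = 3 each). These shares did not overlap (exact permutation test as above, p = 0.1, the smallest that 3 libraries against 3 allow). Some other roles also did not overlap, at the same p. Start codon factors (0.134% against 0.14%) and eIF3 (0.24% against 0.245%) were lower. Cap binding with its inhibitors (0.0379% against 0.036%) and helicases with cofactors (0.257% against 0.251%) were higher.

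**Figure D3:**
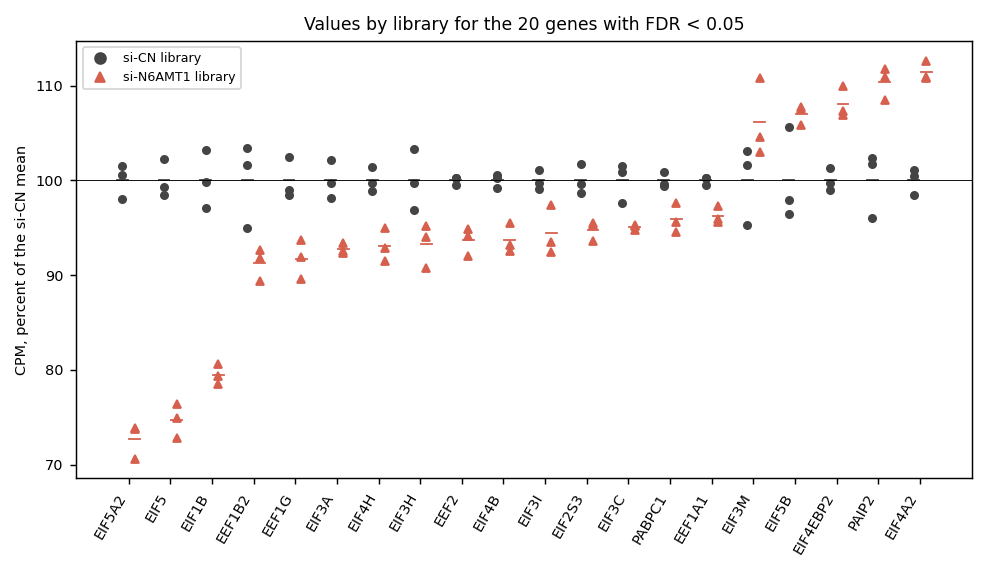
Each library of the 20 called genes is plotted as CPM in percent of the si-CN mean of that gene (y axis), with short lines at group means. In EIF5A2, EIF5 and EIF1B all si-N6AMT1 libraries are far below all si-CN libraries, in most of the other genes the groups lie close to each other, and in EIF3M they overlap.

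EEF1A1, EEF1B2, EEF1D, EEF1G, EEF2, EIF3A, EIF3E, EIF3F, EIF3H, EIF4B and PABPC1 have been described as TOP mRNAs. Of these 11 members, 8 were downregulated and 0 upregulated by edgeR, DESeq2 or limma-voom alike, with 0 upward also at an unadjusted p under 0.05 (median log2 fold change -0.09), and 10 of 11 values were negative. Of the other 38 members, 7 were downregulated and 5 upregulated, with a median of 0.0075. The TOP list was chosen with earlier results of these data known, so this contrast describes the members and gives no independent support. In the annotated starts below, the upregulated EIF4A2 and EIF3M carry the tract, and both are among the other 38. The lowest of the 11 was EEF1B2 and the highest was EEF1D, the 1 positive value. Many TOP mRNAs are abundant, and among the 1160 genes at or above the members' median of 174 CPM, 30.2% were downregulated and 23.4% upregulated. The count of 8 fell to 5 when si-N6AMT1 replicate 1 was left out. Start sites in RefSeq (GRCh38.p14) were read for 39 of the 49 genes to look for the tract itself, taken as a C followed by at least 4 pyrimidines at the annotated start. Of these 39 genes 9 begin with such a run, as do 4.04% of 27305 annotated promoters. Only 6 of the 11 TOP members are among the 39, and 4 of these 6 begin with the run, while EEF1B2 and EEF1G do not. No start was read for EIF3A, EIF3E, EIF3H, EEF1D and PABPC1. The following windows of 10 bases before and 20 after the start, with the run in capitals, show genes with the tract that fell and that rose, and a listed gene without it.
EEF1A1 (chr6:73521013-73521042 in GRCh38.p14, minus strand): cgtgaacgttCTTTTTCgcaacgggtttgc
EEF2 (chr19:3985444-3985473 in GRCh38.p14, minus strand): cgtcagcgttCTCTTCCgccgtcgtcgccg
EIF4B (chr12:53006446-53006475 in GRCh38.p14, plus strand): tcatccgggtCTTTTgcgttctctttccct
EIF4A2 (chr3:186783567-186783596 in GRCh38.p14, plus strand): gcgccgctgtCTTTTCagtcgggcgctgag
EEF1G (chr11:62573872-62573901 in GRCh38.p14, minus strand): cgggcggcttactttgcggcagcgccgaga
Of the 9 genes with a run, 4 were downregulated (EEF1A1, EEF2, EIF4B and EIF2S3), 2 were upregulated (EIF4A2 and EIF3M) and 3 were not called (EIF3F, EIF3K and EIF3D). Called genes with the tract went in both directions, but the upregulated EIF3M overlapped between groups and lost its call in 8 of 16 alternatives. An annotated start can differ from the one used in these cells, and a window without the run says only that the letters are not at that position.

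Levels were compared between genes per length, as TPM (counts per length, brought to the same total in each library) estimated from the reference transcript, with the coding length as a second scale. In si-CN libraries EEF1A1 was the highest at 2451 ± 27.1 TPM (SD, n = 3), followed by EEF1G at 1638 ± 16.9, EIF5A at 1279 ± 24.5, EIF4A1 at 1156 ± 10.0 and PABPC1 at 1014 ± 18.5 TPM. Each of these steps was larger than the spread of the libraries. By coding length EEF1A1 stayed first, at 2923 TPM, but EIF1 had rank 2 at 2019.5 TPM and EEF1G rank 4 at 850.1 TPM. The lowest genes on both scales were EIF4E3, at 0.726 TPM by transcript and 5.06 TPM by coding length, and EEF2K, at 12.3 and 19.7 TPM. All 5 eIF2B subunits were below all 3 eIF2 subunits, with 30.2 to 74.1 TPM against 92.7 to 402.4 TPM by transcript length, and 21.0 to 91.3 against 191.5 to 484.1 TPM by coding length. The subunits of eIF3 ran from 65.5 TPM (EIF3F) to 298.7 TPM (EIF3E) by transcript length. EIF3F was thus the lowest subunit on that scale, while EIF3A was the lowest by coding length at 59.4 TPM, so the order within eIF3 depends on the length used.

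**Figure D4:**
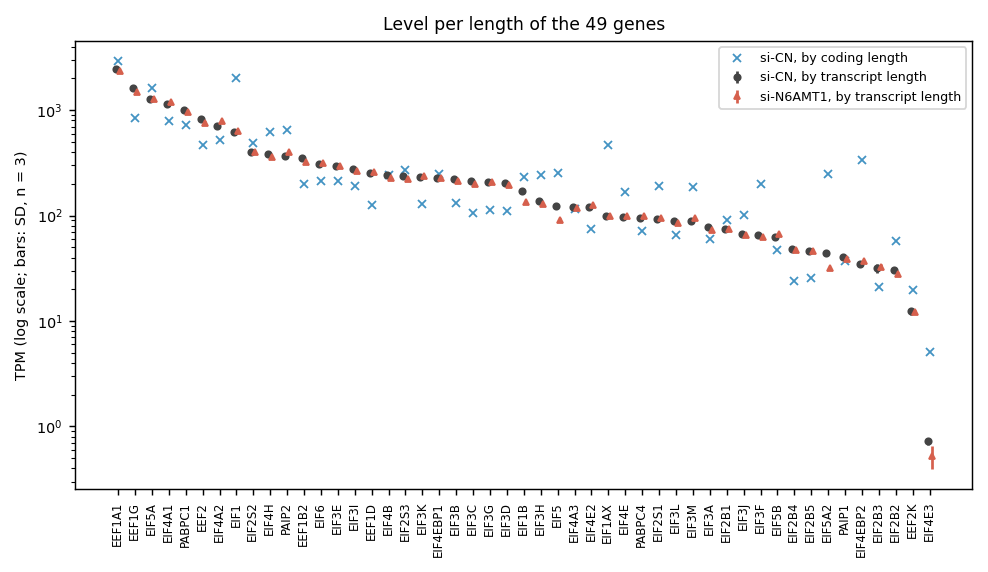
The level of each gene in TPM (y axis, log scale) is drawn for si-CN and si-N6AMT1 libraries by transcript length, with the SD of 3 libraries, and for si-CN by coding length. By transcript length, si-CN levels run from 0.726 TPM for EIF4E3 to 2451 TPM for EEF1A1, and the 2 groups lie close together for nearly every gene compared with that range.

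Other genes of the pathway were counted in lists chosen for their role. Of 52 such genes 51 were tested, and 7 were lower and 5 higher (23.5% called), near the 21.3% of all genes. DESeq2 called 6 lower and 1 higher. Among kinases of eIF2alpha and the subunits of its phosphatases, 3 of 6 were downregulated and 0 upregulated by edgeR, DESeq2 or limma-voom, with 0 upward at an unadjusted p under 0.05. Of all genes tested 11.5% were downregulated and 9.78% upregulated, and between 52.5 and 770.0 CPM the shares were 24.8% and 17.5%. PPP1R15A, which directs a phosphatase to eIF2alpha, had 265.9, 267.1 and 277.0 CPM in si-N6AMT1 and 306.9, 303.4 and 308.5 CPM in si-CN, without overlap (log2 fold change -0.18, SE 0.0231, edgeR FDR = 3.32e-06). The kinases EIF2AK3 and EIF2AK4, which respond to stress of the endoplasmic reticulum and to amino acid shortage, fell by 0.19 and 0.20 on the log2 scale (edgeR FDR = 0.00302 and 0.000405). The phosphatase subunit PPP1R15B was not called (log2 fold change 0.03, edgeR FDR = 0.51). In the list of mTORC1 and MNK signalling, 2 of 11 were lower and 3 higher, with MTOR at -0.13 (edgeR FDR = 0.00264) and MKNK2, a kinase of eIF4E, at 0.17 (edgeR FDR = 4.15e-06). Of 11 further initiation and recycling factors tested, DHX29, a helicase that helps scanning through structured leaders, was lower (28.1, 27.0 and 26.9 CPM against 34.4, 33.9 and 35.1 CPM, log2 fold change -0.34, edgeR FDR = 9.87e-06). EIF2A, an alternative initiator tRNA factor, was higher (log2 fold change 0.09, edgeR FDR = 0.0205), and EIF4EBP3 was too low to be tested. Among 16 further elongation factors and modifying enzymes 1 was called, DPH1, of the diphthamide pathway that modifies eEF2 (log2 fold change 0.13, edgeR FDR = 0.0456), while DESeq2 and limma-voom called 0 of this list. EEFSEC, the selenocysteine elongation factor, was the lowest in FDR of those with a negative value (log2 fold change -0.10, edgeR FDR = 0.245). Of 7 mitochondrial factors 1 was called, the elongation factor GFM1 (log2 fold change -0.16, edgeR FDR = 0.000311), and MTIF3 had the smallest FDR among positive values (log2 fold change 0.13, edgeR FDR = 0.13).

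The 20 calls differed in how firmly they stood. Of these, 12 were past the threshold in all 16 other ways of processing that were run, the downregulated EIF5A2, EIF5, EIF1B, EEF1B2, EEF1G, EIF3A, EIF4H, EEF2 and EIF4B and the upregulated EIF4A2, PAIP2 and EIF4EBP2. The other 8 lost the call in at least 1, and 0 of the 20 changed sign in any of the 16. With the counts of near-identical copies added to each member, 15 members were again lower and 5 higher. Of 169 copies named after 29 of the members, 80 had any count, 4 were tested and 0 were called by edgeR, DESeq2 or limma-voom (2 had an unadjusted p under 0.05, EEF1A1P5 lower and EEF1A1P3 higher). The copy with the largest share of its member's counts was EIF3CL.

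**Figure D5:**
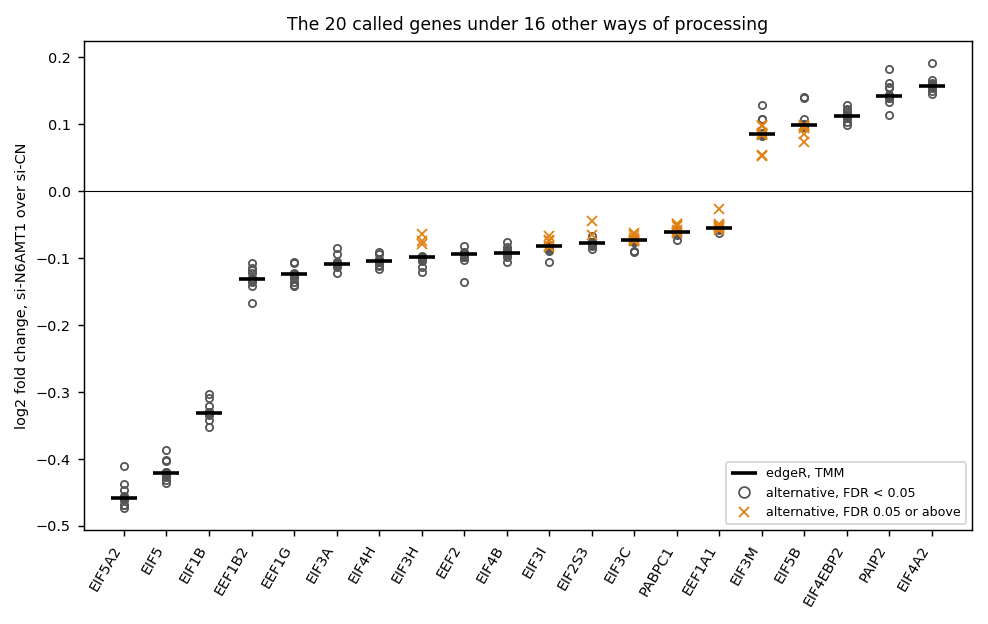
The log2 fold change of each called gene (y axis) is drawn as a bar for edgeR with TMM scaling, and as circles or crosses for the 16 alternatives, crosses where the FDR was 0.05 or above. Crosses are found for 8 genes, all with a log2 fold change under 0.1 in size, while EIF5A2, EIF5 and EIF1B remain between -0.47 and -0.30.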

How the data were processed

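RNA was measured in 3 si-N6AMT1 and 3 si-CN libraries, grouped by their labels. Adapters were removed by the authors with Trim Galore, transcripts were quantified with kallisto v0.46.0 against a GENCODE annotation on hg19, and transcripts of a gene were summed. The authors deposited these estimated counts as whole numbers, without normalization, so no rounding was needed. The strand option of kallisto is not given in the sources used here, and reads shared by overlapping or near-identical genes are divided by estimate. All 6 columns were used. GENCODE v44 (GRCh37) gave a symbol for 62149 identifiers, and 289 had none (at most 0.137% of counts). Library totals ran from 19739247 to 21289740 counts. The chi-square between 2 libraries, divided by its degrees of freedom, was 1.37 to 1.77 within and 6.89 to 7.80 between groups. No library thus repeated the counts of another. Whether libraries of a group were made from the same RNA cannot be told from this value.

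The test was edgeR v4.0.16, run under R v4.3.3. Genes were filtered with a minimum count of 10, scaled by TMM and fitted by quasi-likelihood without covariates. P-values were adjusted by Benjamini-Hochberg over 17320 genes (FDR, threshold 0.05), and the standard error is the absolute log2 fold change over the square root of F. CPM values are scaled by TMM. The biological coefficient of variation was 1.85%. On simulated counts, in which 195 of 17057 genes tested were changed 1.5-fold, 73.8% were recovered and 8.28% of calls were false. That share of false calls was above the FDR threshold. In the data 21.3% of genes tested were called and 0 of the 49 members reached 1.5-fold. The simulated rates therefore do not carry over to the member calls.

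The members and gene lists were chosen with earlier results of these data known. A few marker genes are not reported here, and values over marker lists leave them out. Values per library were given for called members and for the highest and lowest member of each role. In each other list the gene with the smallest FDR in either direction was reported, with values per library for PPP1R15A and DHX29 alone. Further genes were named for completeness after their values were seen. Alternatives were RLE scaling, limma-voom (limma v3.58.1), DESeq2 v1.42.0 with default filtering or on genes of at least 1 TPM, no filter, mitochondrial genes left out, near-identical copies summed, a replicate block, alone or with a GC correction, and each library left out. Overlapping genes summed, coding length and ratios of related genes were added after seeing the data. UTR and start sequences were read with Python v3.11.15.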

Additional observations from a re-analysis of the deposited data

How the results depend on the processing

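With each library left out in turn, downregulated members ran from 11 to 14 and upregulated from 3 to 6, other pathway genes higher from 2 to 4, downregulated TOP members from 5 to 7, the members' median log2 fold change from -0.0385 to -0.0181, and the medians of eIF2 from -0.039 to 0.0391, eIF2B from -0.0083 to 0.0263, eIF4A and cofactors from -0.0629 to -0.0239 and TOP members from -0.0979 to -0.0752. DESeq2 with default filtering called 13 members lower and 3 higher, 1 other pathway gene higher, and 1136 lower and 796 higher of all genes. On genes of at least 1 TPM it called 3 members and 1 other pathway gene higher, and 1239 and 930 of all genes. The cause was not tested. The difference in the members' summed share of counts, -0.032 percentage points, was -0.046 without mitochondrial genes and -0.00667 without EEF1A1, EEF2 and EEF1G.

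The replicate numbers did not pair the libraries, since deviations of same-numbered libraries correlated at -0.038, -0.042 and 0.01. With the replicate number as a block, 12 members were lower and 4 higher, with 3 other pathway genes higher, and EIF3C, EIF3M, PABPC1 and EEF1A1 lost their call. With the block and a GC correction, 11 were lower and 7 higher, 5 TOP members were lower, and the medians of eIF2 and TOP members were 0.0163 and -0.0636. There EIF2S1 (0.0855, FDR 0.0348) and EIF4E (0.1099, FDR 0.0194) were called higher, and EIF2S3 (-0.0443, FDR 0.27), EIF3H, PABPC1 and EEF1A1 lost their call. In that fit the sign turned for genes that were not called, EIF2S2 (0.0163), EIF3E (0.0311), EIF3G (-0.0296), EIF3J (0.0255), EIF4EBP1 (-0.047), EIF5A (-0.0137), EIF6 (-0.0044) and EEF1D (-0.019).

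Leaving out 1 library also turned the sign of genes that were not called, with ranges of -0.0002 to 0.0228 for EIF1AX, -0.039 to 0.0391 for EIF2S2, -0.0049 to 0.1351 for EIF2B3, -0.0455 to 0.0132 for EIF2B4, -0.0083 to 0.0614 for EIF2B5, -0.0246 to 0.0032 for EIF3E, -0.0076 to 0.0431 for EIF3G, -0.0411 to 0.0075 for EIF3J, -0.0181 to 0.0219 for EIF4EBP1, -0.0034 to 0.036 for EIF5A and -0.0629 to 0.0307 for EEF2K. EIF4E3 had no adjusted p under DESeq2 with default filtering. At 35 to 69 counts per library, EIF4E3 had a wide error (SE 0.175). It was called only without si-N6AMT1 replicate 2 (-0.5916, edgeR FDR = 0.038).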
